A study of Canis lupus familiaris with 16 samples.

Results

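The genes described are 7 transcripts used as marks of bile duct progenitors and of stem-like tumour cells: SOX4, SOX9, SPP1, CD44, PROM1, CD24 and ALCAM. They were taken by symbol from the gene counts of 16 RNA-seq libraries, and all 7 of 7 were found among 39543 symbols. The libraries came from 4 canine hepatocellular carcinoma lines, KU-cHCC-001, 002, 004 and 005, described as primary cultured and established from liver tumours of dogs. Each line was kept for 24 h in 1 of 4 treatments: 30 µM of sorafenib, dimethyl sulfoxide (DMSO) as the vehicle of sorafenib, 15 µM of toceranib, or phosphate-buffered saline of Dulbecco's formula (DPBS) as the vehicle of toceranib. There was 1 library per line and treatment, so each treatment had 4 replicates, which are the 4 lines, and no line was repeated within a treatment. Both drugs inhibit kinases: sorafenib inhibits several, receptor tyrosine kinases among them, and toceranib acts on KIT and the VEGF and PDGF receptors, which are receptor tyrosine kinases.

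In the liver, bile duct cells and the progenitor cells that arise next to the ducts carry transcription factors of the SOX family, of which SOX9 is the usual mark of the biliary lineage. SOX4 acts with SOX9 in bile duct development. Osteopontin, the product of SPP1, is a secreted protein that binds integrins and CD44, and CD44 is the main cell surface receptor for hyaluronan. PROM1 (CD133), CD24 and ALCAM (CD166) are surface proteins that are used, with CD44, to sort cells with stem-like behaviour from tumours.

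Each drug was set against DMSO of the same line, which asks which of these transcripts each drug moved. For toceranib this is not its own vehicle, so drug and vehicle cannot be told apart in that comparison, and the DPBS values of the 7 genes are given beside it. Library totals ran from 12008366 to 21943572 counts, the lowest in toceranib of KU-cHCC-005. Levels are CPM, counts scaled to a common library size (TMM). CPM are not divided by transcript length, so levels of different genes are not compared. In bulk RNA, fewer cells with a transcript and less transcript per cell cannot be told apart.

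The DPBS libraries did not follow their line labels. Over 14938 genes and among the 4 DMSO libraries, all 8 drug libraries correlated best with that of their own line, but 3 of 4 DPBS libraries did not. Those labelled 001 and 004 were closest to DMSO of KU-cHCC-002 (r = 0.965 and 0.964), and those labelled 002 and 005 to DMSO of KU-cHCC-005 (r = 0.954 and 0.957). Within these pairs the squared count difference was 2.21 and 2.12 times that of sampling noise, against at least 8.30 times in every other pair of libraries. By this measure toceranib of KU-cHCC-002, 004 and 005 lay at 13.7, 18.4 and 8.30 from the nearest DPBS library. Their own DMSO libraries were further, at 46.5, 25.9 and 31.65. Toceranib of KU-cHCC-001 went the other way, at 29.4 from its DMSO and 64.8 from the nearest DPBS library. The cause was not tested. No DPBS library resembled KU-cHCC-001 (r = 0.844 to 0.853). DPBS libraries were therefore left out of the fit of 12 libraries and are described as labelled. The toceranib library of KU-cHCC-005 shared connective tissue transcripts with 2 of them, and toceranib calls are given with and without it. It also lay at 10.48 from toceranib of KU-cHCC-004, against 25.13 between these lines in DMSO and 28.56 with sorafenib. Toceranib of KU-cHCC-004 held some of these transcripts at lower levels, such as the collagen gene COL3A1 at 6.53 CPM. Calls without the KU-cHCC-005 library still include that of KU-cHCC-004. The cause of this closeness was not tested.

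By markers the lines were duct-like more than hepatocyte-like. In DMSO, 11 to 15 of 20 biliary markers reached 5 CPM, the lowest number in KU-cHCC-001, where KRT7 and KRT19 stood at 288 and 21.3 CPM against at least 5474 and 2637 CPM in the others. Of 19 hepatocyte markers 5 or 6 did, and albumin (ALB) lay at or below 0.423 CPM in all 16 libraries. Leukocytes can carry SPP1 and CD44 as well, and most of their markers were at or near 0: TYROBP, FCER1G, CD3E and MARCO had 0 counts in every library, and PTPRC stayed at or below 0.442 CPM. The 14 leukocyte markers summed to 15.5 to 86.1 CPM in DMSO, 15.8 to 64.1 CPM with sorafenib and 62.3 to 332 CPM with toceranib, where KU-cHCC-001 held 319 CPM of CD74. CD14, which is not limited to leukocytes, made up most of the other sums, at 11.6 to 84.4 CPM in DMSO, 9.57 to 56.9 CPM with sorafenib and 12.2 to 71.6 CPM with toceranib, and its part in the results was not tested.

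**Figure D1:**
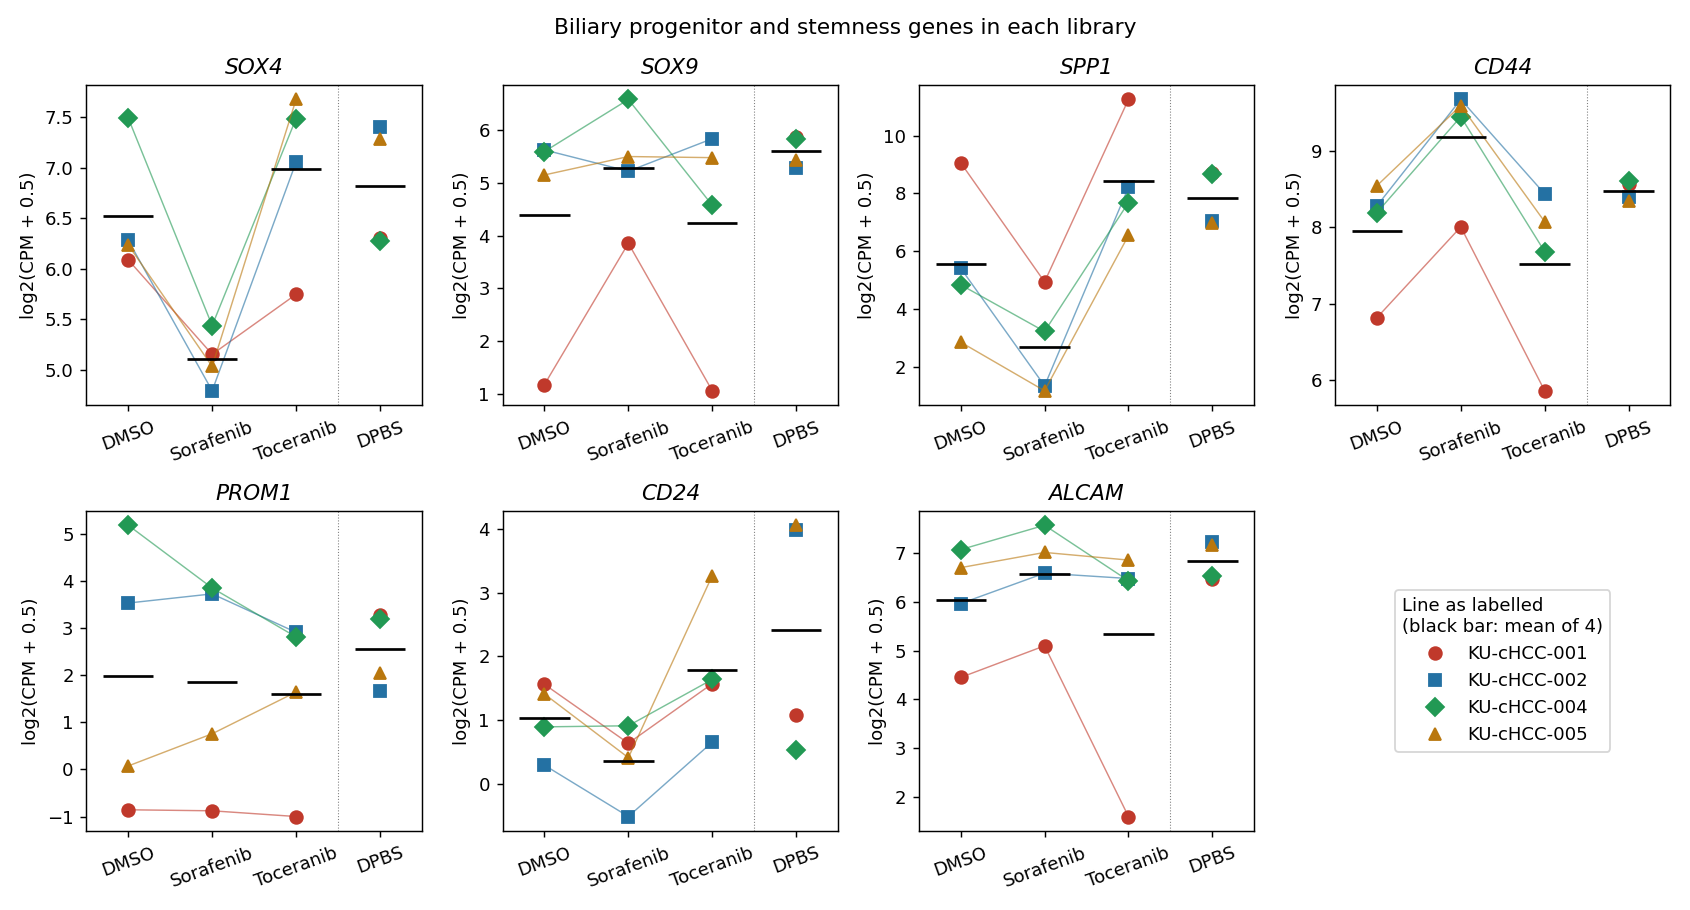
Level of each gene as log2(CPM + 0.5) on the vertical axis in the 16 libraries, by treatment on the horizontal axis; colours and symbols are lines as labelled, thin lines join the DMSO, sorafenib and toceranib libraries of a line, and black bars are means of the 4 log2 values. SOX4 and SPP1 are lowest with sorafenib, CD44 is higher with sorafenib than in DMSO or toceranib of each line, and PROM1 differs mainly between lines.

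Sorafenib moved 3 of the 7 genes in the edgeR fit. SOX4 and SPP1 fell and CD44 rose, each in 4 of 4 lines, and SOX9, PROM1, CD24 and ALCAM did not pass. All 7 passed the filter on low counts. Of all 14938 genes tested, 19.6% were called (1433 higher and 1502 lower, or 1825 and 1185 with library size alone), so 3 of 7 is set against that background. The 3 were called again without the toceranib library of KU-cHCC-005. That library is in neither treatment of this contrast but shares its filter, scaling, line block and spread.

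SOX4, a transcription factor with a high mobility group domain, stood at 67.5, 77.2, 179 and 74.8 CPM in DMSO of KU-cHCC-001, 002, 004 and 005. With sorafenib it stood at 35.1, 27.2, 42.9 and 32.3 CPM in the same order. Every sorafenib library lay below every DMSO library. The decrease was steepest in KU-cHCC-004, 4.18-fold, and shallowest in KU-cHCC-001, 1.92-fold, so that the 4 lines ended closer together (34.4 ± 6.53 CPM, SD, n = 4) than they began (99.7 ± 53.1 CPM). The log2 fold change was -1.44 ± 0.31 (SE, edgeR adjusted p = 0.0102). It did not pass without KU-cHCC-002 (-1.42, edgeR adjusted p = 0.0672) or without KU-cHCC-004 (-1.21, edgeR adjusted p = 0.0934), in fits with fewer libraries.

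SOX9, the mark of bile duct cells, separated the lines more than the treatments. In DMSO its level was 1.77 CPM in KU-cHCC-001, against 48.7, 47.7 and 34.9 CPM in KU-cHCC-002, 004 and 005. With sorafenib the values were 14.0, 36.7, 94.7 and 44.6 CPM. The gene was thus 7.88-fold higher with sorafenib in KU-cHCC-001 (318 counts against 34) and 1.99-fold higher in KU-cHCC-004, while KU-cHCC-002 went the other way at 0.754-fold. The fitted difference was 1.06 on the log2 scale with a 95% interval of -0.094 to 2.22 (edgeR adjusted p = 0.179), and 0.40 without KU-cHCC-001 (edgeR adjusted p = 0.508). With 1 library per line and treatment, whether lines differ in this response was not tested.

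SPP1 had the widest range of the 7 genes, from 1.76 to 2427 CPM over the 12 DMSO, sorafenib and toceranib libraries. In DMSO of KU-cHCC-001 it stood at 532 CPM, and the values in KU-cHCC-002, 004 and 005 were 42.2, 28.1 and 6.74 CPM. With sorafenib it stood at 30.2, 2.04, 8.86 and 1.76 CPM. It was lower in 4 of 4 lines, 17.6- and 20.6-fold in KU-cHCC-001 and KU-cHCC-002 and 3.18- and 3.83-fold in KU-cHCC-004 and KU-cHCC-005, although the treatments overlapped because the lines started so far apart. The log2 fold change was -3.01 ± 0.47 (SE, edgeR adjusted p = 0.00272), and 61 of the 14938 genes had a lower one.

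CD44, the receptor for hyaluronan and osteopontin, moved the opposite way to its ligand. It stood at 112, 310, 292 and 372 CPM in DMSO of KU-cHCC-001, 002, 004 and 005, and at 256, 812, 695 and 769 CPM with sorafenib. The ratio was nearly constant, 2.07- to 2.62-fold in the 4 lines. Only KU-cHCC-001, at the lowest level in both treatments, made the ranges overlap. The log2 fold change was 1.20 ± 0.19 (SE, edgeR adjusted p = 0.00313), and it passed with any 1 line left out, at edgeR adjusted p-values of 0.00191 to 0.0414.

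**Figure D2:**
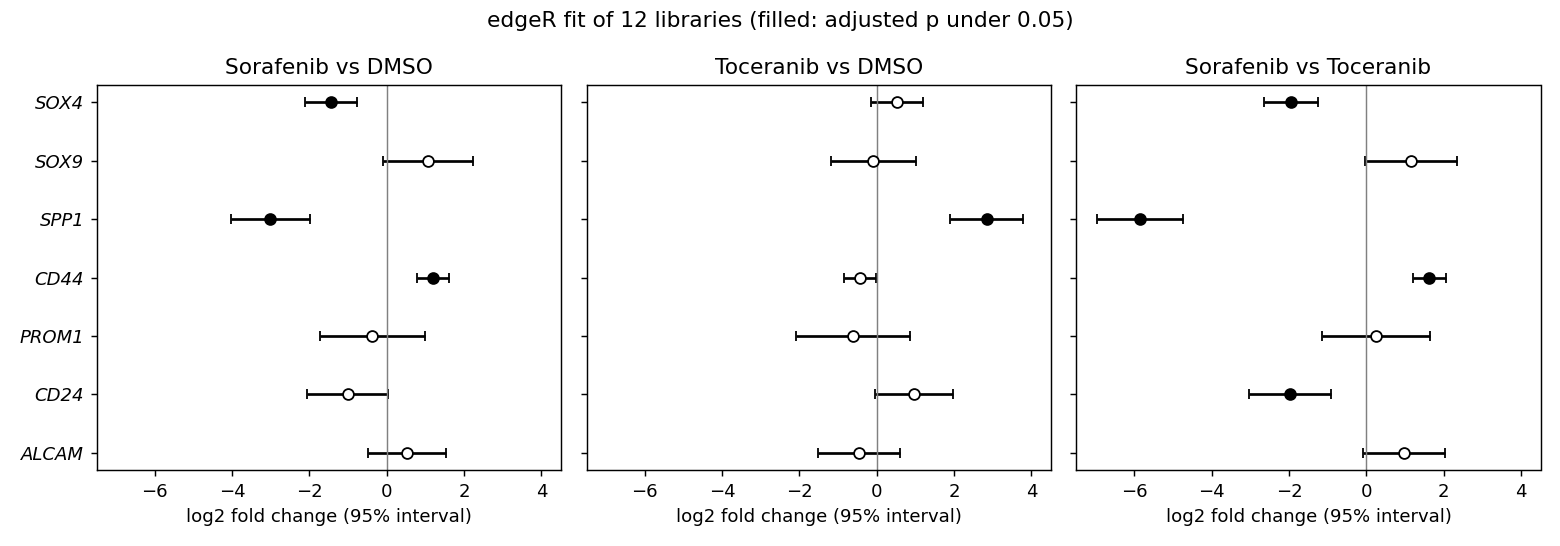
Fitted log2 fold change (horizontal axis) of each gene with its 95% interval in 3 comparisons of the edgeR fit of 12 libraries; filled points passed at an adjusted p under 0.05. SPP1 lies at -3.01 for sorafenib and 2.84 for toceranib against the same DMSO libraries, and CD44 lies above 0 in both comparisons that start with sorafenib.

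The 3 remaining surface markers did not pass with sorafenib. ALCAM, an adhesion molecule of the immunoglobulin family, stood at 21.4, 62.2, 135 and 104 CPM in DMSO of KU-cHCC-001, 002, 004 and 005 and at 33.8, 96.1, 191 and 129 CPM with sorafenib. It was higher in 4 of 4 lines, by 1.24- to 1.58-fold. In the fit of 12 libraries the difference was 0.52 ± 0.46 (SE, edgeR adjusted p = 0.454). Fitted on the 8 libraries of DMSO and sorafenib only, it was 0.50 ± 0.11 (SE, edgeR adjusted p = 0.0101), in a fit that called 36.6% of all genes. The call of this small ratio therefore depended on which libraries set the spread.

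PROM1, a membrane protein of cell protrusions, was present in some lines and nearly absent from others. In DMSO of KU-cHCC-001, 002, 004 and 005 it had 1, 184, 635 and 10 counts, which is 0.0521, 11.1, 35.9 and 0.553 CPM. With sorafenib the levels were 0.0439, 12.8, 14.0 and 1.19 CPM, and with toceranib 0, 7.03, 6.53 and 2.62 CPM. The count of 0 in toceranib of KU-cHCC-001 allows up to 0.126 CPM (3 counts). The DPBS libraries of label 001, 002, 004 and 005 held 9.22, 2.66, 8.69 and 3.66 CPM. KU-cHCC-004 was lower with both drugs, whereas KU-cHCC-005 was higher with both, at few counts (10 in DMSO, 23 with sorafenib and 31 with toceranib). In KU-cHCC-005 the exact Poisson 95% intervals, for counting error only, overlapped between DMSO (0.265 to 1.016 CPM) and sorafenib (0.754 to 1.785 CPM). Its toceranib library is the one described above that shared connective tissue transcripts with DPBS libraries. The fitted differences from DMSO were -0.37 (95% interval -1.73 to 0.99, edgeR adjusted p = 0.709) and -0.61 (-2.08 to 0.86, edgeR adjusted p = 0.586), and both turned positive without KU-cHCC-004 (0.42 and 0.52).

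CD24, a short glycoprotein held to the membrane by a lipid anchor, had few reads. Its counts were 47, 12, 24 and 39 in DMSO of KU-cHCC-001, 002, 004 and 005 and 24, 4, 26 and 16 with sorafenib. In CPM this was 2.45, 0.723, 1.36 and 2.16 in DMSO and 1.05, 0.199, 1.38 and 0.828 with sorafenib. Exact Poisson 95% intervals, which cover counting error only, were 0.374 to 1.26 CPM for the 12 counts and 0.0543 to 0.510 CPM for the 4. The level was lower in 3 of 4 lines and nearly equal in KU-cHCC-004 (-1.01 ± 0.48, SE, edgeR adjusted p = 0.161).

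**Figure D3:**
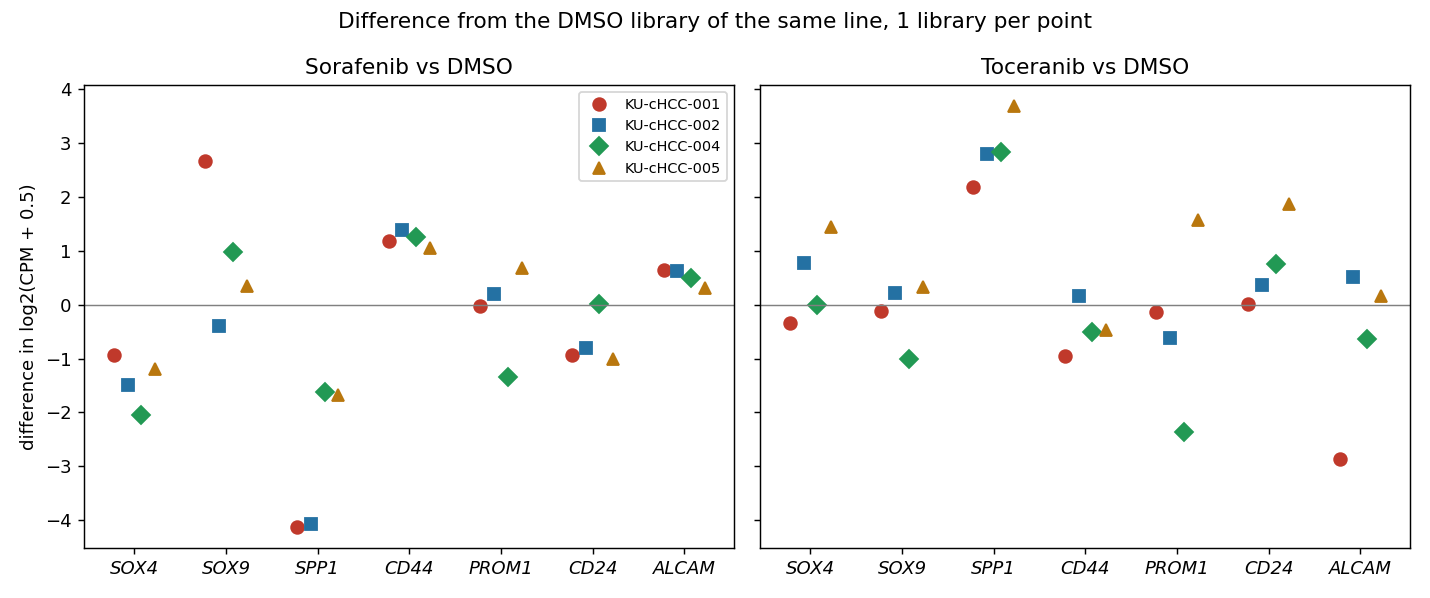
Difference in log2(CPM + 0.5) between each drug library and the DMSO library of its line (vertical axis) for the 7 genes (horizontal axis), 1 point per line. With sorafenib the 4 points of CD44 lie between 1.05 and 1.39, while those of SOX9 spread from -0.40 to 2.67. With toceranib the 4 points of SPP1 lie between 2.19 and 3.69.

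Against DMSO, 1 of the 7 genes passed with toceranib. SPP1 rose, and no other member passed in either direction. Of all 14938 genes, 7.46% were called (644 higher and 471 lower, or 736 and 281 with library size alone). Without the toceranib library of KU-cHCC-005 the number of genes called went from 1115 to 66, with SPP1 among them.

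SPP1 with toceranib stood at 2427, 295, 205 and 92.8 CPM in KU-cHCC-001, 002, 004 and 005, against 532, 42.2, 28.1 and 6.74 CPM in DMSO. It was higher in 4 of 4 lines, by 4.56-, 6.99-, 7.28- and 13.8-fold. The lines kept their order, so the treatments overlapped. The log2 fold change was 2.84 ± 0.43 (SE, edgeR adjusted p = 0.0115), and 2.71 ± 0.46 (SE, edgeR adjusted p = 0.0420) without toceranib of KU-cHCC-005. It kept its size but did not pass without KU-cHCC-002 (2.84, edgeR adjusted p = 0.0640), without KU-cHCC-004 (2.83, edgeR adjusted p = 0.0674) or without KU-cHCC-005 (2.59, edgeR adjusted p = 0.132).

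SPP1 was also high in the vehicle of toceranib. In DPBS, the libraries of label 001, 002, 004 and 005 held 418, 133, 407 and 125 CPM. All 4 lay above the DMSO libraries of KU-cHCC-002, 004 and 005, and toceranib in those 3 lines fell within or below the range of DPBS. Only the 2427 CPM of toceranib in KU-cHCC-001 stood clear of DPBS, and no DPBS library resembled that line. Fitted as labelled in all 16 libraries, toceranib minus DPBS was 0.33 on the log2 scale and DPBS minus DMSO 2.42. No interval or p is given for these, because the DPBS labels do not pair with the lines and the 4 libraries form near-identical pairs.

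SOX4 with toceranib stood at 53.2, 132, 179 and 204 CPM in KU-cHCC-001, 002, 004 and 005. It was higher than in DMSO in KU-cHCC-002 and KU-cHCC-005, nearly equal in KU-cHCC-004 and lower in KU-cHCC-001 (0.52 ± 0.31, SE, edgeR adjusted p = 0.293). Without KU-cHCC-001 the difference passed at 0.76 (edgeR adjusted p = 0.0415), in a fit that called 20.5% of all genes. Without the KU-cHCC-005 toceranib library it was 0.21 (edgeR adjusted p = 0.722). DPBS held 78.8 and 77.0 CPM in the pair labelled KU-cHCC-001 and 004 and 168 and 155 CPM in the pair labelled KU-cHCC-002 and 005.

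ALCAM with toceranib stood at 2.51 CPM in KU-cHCC-001 (60 counts, against 410 in DMSO) and at 89.0, 86.3 and 116 CPM in KU-cHCC-002, 004 and 005. The single library of KU-cHCC-001 was 8.50-fold lower than DMSO, and the other 3 lines lay between 0.641- and 1.43-fold. The fitted difference was -0.45 ± 0.48 (SE, edgeR adjusted p = 0.575), and it turned to 0.062 without KU-cHCC-001. ALCAM in DPBS stood at 88.7 to 150 CPM.

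CD44 was lower with toceranib in 3 of 4 lines, at 57.8, 346, 205 and 269 CPM (-0.43 ± 0.19, SE, edgeR adjusted p = 0.171), and stood at 323 to 389 CPM in DPBS. SOX9 stood at 1.59, 56.5, 23.3 and 43.9 CPM, with 38.4 to 57.8 CPM in DPBS, and its fitted difference of -0.083 was 0.0055 with library size alone.

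CD24 was highest in the libraries with connective tissue transcripts. It stood at 2.47, 1.07, 2.61 and 9.14 CPM with toceranib in KU-cHCC-001, 002, 004 and 005, and at 1.61, 15.4, 0.946 and 16.2 CPM in the DPBS libraries of the same labels. The 3 highest of the 16 values were those of DPBS 002, DPBS 005 and toceranib of KU-cHCC-005. In these 3 libraries the fibrillar collagen gene COL3A1 stood at 72.5, 80.4 and 51.6 CPM and the matrix proteoglycan DCN at 15.6, 18.4 and 17.2 CPM. In all DMSO and sorafenib libraries both had 0 counts, and toceranib of KU-cHCC-004 held 6.53 CPM of COL3A1. Over the whole list, 10 of 15 mesenchymal markers reached 5 CPM in each of these 3 libraries, against 3 to 9 in the other 13, and their summed level was 3825 to 4149 CPM against 1922 to 13440. The 9 were those of toceranib of KU-cHCC-004, against 5 in DMSO of that line. The highest sums were those of KU-cHCC-001, through VIM and FN1. Whether DPBS 002, DPBS 005 and toceranib of KU-cHCC-005 held connective tissue cells, and whether these had a part in the CD24 values, was not tested.

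**Figure D4:**
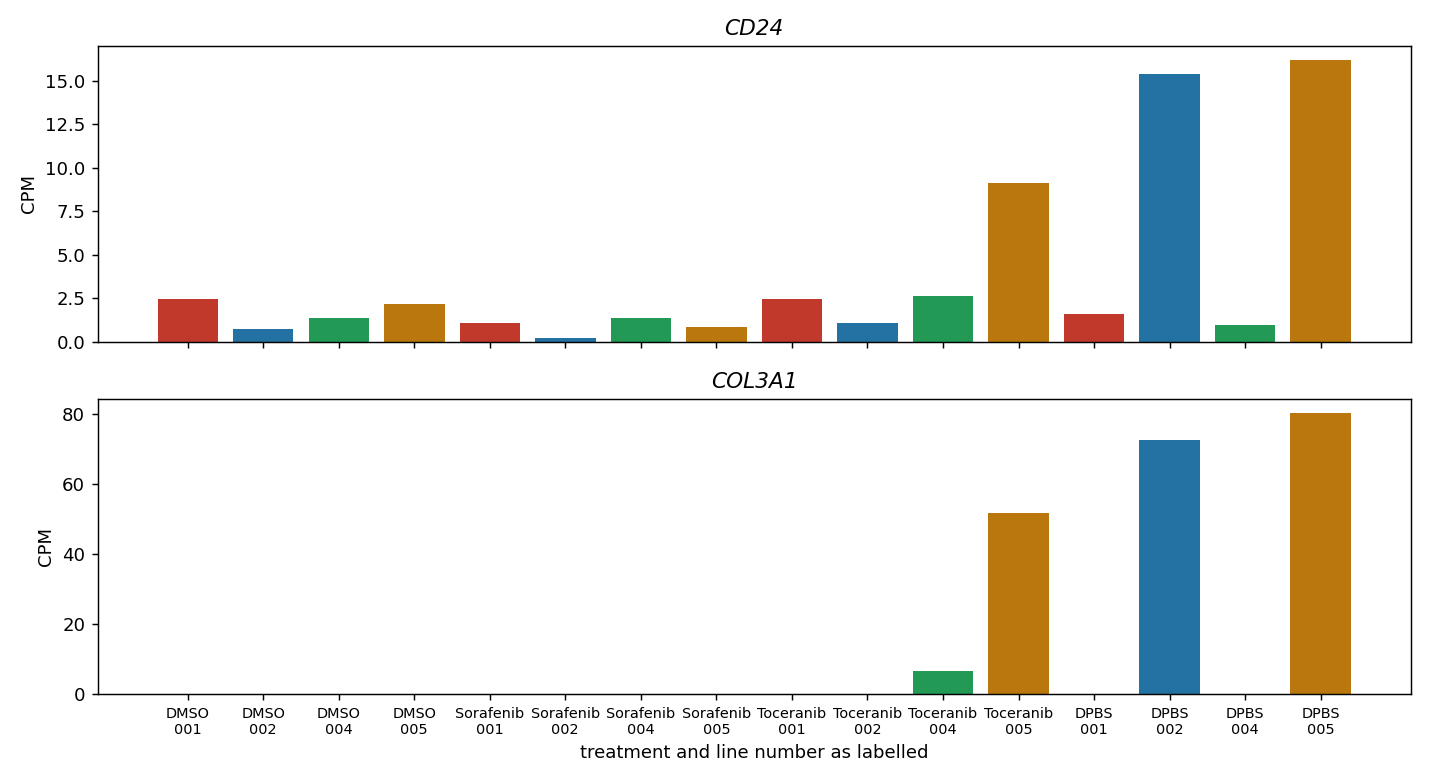
Level in CPM (vertical axes) of CD24 and of the collagen gene COL3A1 in the 16 libraries, named by treatment and line number as labelled; colours are lines. Both genes are highest in DPBS 002, DPBS 005 and toceranib 005, where CD24 stands at 15.4, 16.2 and 9.14 CPM.

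Sorafenib and toceranib were compared directly within each line, at 30 and 15 µM and in different vehicles. Of the 7 genes 4 differed: SPP1, SOX4 and CD24 were lower and CD44 was higher with sorafenib, each in 4 of 4 lines. The background was 38.4% of 14938 genes. Both drugs are set against the same DMSO libraries above, so their contrast is read from the direct test. It also carries the difference between the vehicles DMSO and DPBS, so drug and vehicle cannot be told apart in it. For SPP1, DPBS minus DMSO was 2.42 on the log2 scale as labelled. SPP1 differed by -5.85 ± 0.51 on the log2 scale (SE, edgeR adjusted p = 5.57e-05), 23.1- to 144-fold by line, with the highest sorafenib library (30.2 CPM) below the lowest toceranib library (92.8 CPM). Only 7 of the 14938 genes had a lower value.

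SOX4 was 1.52- to 6.31-fold lower with sorafenib than with toceranib, again with no overlap (-1.96 ± 0.32, SE, edgeR adjusted p = 0.00113). CD44 was 2.35- to 4.43-fold higher (1.63 ± 0.20, SE, edgeR adjusted p = 2.60e-04). The calls of SPP1, SOX4 and CD44 were also made without the toceranib library of KU-cHCC-005. CD24 was lower, at -1.98 ± 0.48 (SE, edgeR adjusted p = 0.00851), and at -1.45 (edgeR adjusted p = 0.0328) without the toceranib library of KU-cHCC-005. It did not pass without that line altogether (-1.37, edgeR adjusted p = 0.0784). Nor did it pass in the fit of all 16 libraries (-1.80, edgeR adjusted p = 0.152), which takes the mismatched DPBS line labels as given. The intervals of SOX9 (-0.043 to 2.34), ALCAM (-0.088 to 2.04) and PROM1 (-1.16 to 1.64) included 0.

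Across lines, KU-cHCC-001 stood apart for most of the genes. In DMSO it was the lowest of the 4 lines for SOX4, SOX9, CD44, PROM1 and ALCAM and the highest for SPP1 and CD24. For SOX4 its 67.5 CPM was close to the 74.8 and 77.2 CPM of KU-cHCC-005 and KU-cHCC-002, and for CD24 its 2.45 CPM was within counting error of the 2.16 CPM of KU-cHCC-005. In the 12 DMSO, sorafenib and toceranib libraries, the line accounted for 91.3% of the spread (sum of squares of log2(CPM + 0.5)) of PROM1, 78.9% of SOX9, 73.1% of ALCAM and 53.3% of CD44. The treatment accounted for 67.3% of SOX4, 61.3% of SPP1 and 43.9% of CD44, and for 0.6% of PROM1. For CD24 the line accounted for 39.8% and the treatment for 41.6%. These shares are descriptions without a test.

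After the mean of each line was subtracted, the levels of SOX4 and SPP1 followed each other over the 12 libraries (r = 0.841) and ran against CD44 (r = -0.819 and -0.908). The points share lines and the same 3 treatments, and no test is given. Among 10234 genes of at least 5 CPM, the patterns most like SOX4 were those of PLEKHG2 (r = 0.991), RNF40 (0.984) and HDAC7 (0.982). Those most like SPP1 were ERP29 (0.988), DEGS2 (0.979) and TMED1 (0.973), and those most like CD44 were TCF12 (0.993), SLC7A11 (0.991) and ELL2 (0.990). For ALCAM they were HTT (0.979), VPS13A (0.976) and RFX3 (0.973), for SOX9 ANKRD28 (0.940), FRY (0.910) and BCAR3 (0.902), and for PROM1 TAP1 (0.870), IL27RA (0.866) and PML (0.844).

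Of 17 tested biliary and ductal genes 3 fell and 0 rose with sorafenib, a share near the 19.6% called among all genes, with a median log2 fold change of -0.69 against -0.024 for all genes. Among them, the tight junction gene CLDN4 went from 462 ± 366 to 189 ± 129 CPM (SD, n = 4; -1.06, edgeR adjusted p = 0.0252). PKHD1, which encodes fibrocystin of the primary cilium, went from 18.3 ± 3.70 to 12.1 ± 4.55 CPM (-0.69, edgeR adjusted p = 0.0448). With toceranib 3 rose and 0 fell against DMSO, beside 7.46% called among all genes, with a median of 0.36. They were DCDC2 (3.18), PKHD1 (1.84) and the adhesion molecule EPCAM (0.95). DCDC2, another ciliary gene, was higher in 3 of 4 lines, with 21.97, 55.2 and 89.2 CPM in KU-cHCC-002, 004 and 005 against 0.0602, 2.66 and 12.7 CPM in DMSO, and lower in KU-cHCC-001 (282 against 442 CPM). Without the toceranib library of KU-cHCC-005, PKHD1 passed (1.69, edgeR adjusted p = 0.0275), while EPCAM (1.06, edgeR adjusted p = 0.0563) and DCDC2 (3.29, edgeR adjusted p = 0.134) did not. DPBS libraries were above DMSO for EPCAM and PKHD1: EPCAM stood at 394 to 490 CPM in DPBS, 422 to 685 CPM with toceranib and 229 to 313 CPM in DMSO, and PKHD1 at 86.4 to 141, 40.7 to 85.9 and 15.2 to 23.3 CPM. DCDC2 stood at 29.3 to 154 CPM in DPBS. In the direct comparison 12 of the 17 were lower with sorafenib and 0 higher, beside 20.1% lower and 18.3% higher among all genes. The median was -1.36 against -0.048 for all genes. Of the 12, 9 were also called without the toceranib library of KU-cHCC-005. The largest values among those of at least 5 CPM were GGT1 (-5.04), DCDC2 (-4.996) and PKHD1 (-2.53).

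Markers of other cell types were read beside these genes. Of 7 tested hepatocyte genes 3 fell with sorafenib, beside 19.6% called among all genes. They were the pioneer factors FOXA1 (-1.46) and FOXA2 (-0.50), which bile duct cells express too, and the fibrinogen chain FGA. FGA had a mean under 5 CPM. The 10 tested mesenchymal and 3 tested endothelial genes did not pass with sorafenib, and of 3 tested leukocyte genes CD68 rose, from at most 0.938 CPM in DMSO to at most 6.41 CPM. With toceranib the tested genes of these 4 lists did not pass, beside 7.46% called among all genes. The mesenchymal median was 1.41 on the log2 scale. In the direct comparison 6 of the 7 hepatocyte genes were lower with sorafenib and 0 higher, beside 20.1% lower among all genes. Of the 6, 4 were also called without the toceranib library of KU-cHCC-005. The median was -1.085, so lower levels were not particular to the biliary list. Of the 10 mesenchymal, 3 endothelial and 3 leukocyte genes, 2, 1 and 1 were lower (medians -1.68, -1.28 and -0.59), and 1 leukocyte gene was higher.

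Among other genes used as marks of liver cancer stem cells or self-renewal, 13 were tested. The shares called among all genes were 19.6% with sorafenib and 7.46% with toceranib. With sorafenib the pluripotency factor KLF4 rose from 18.2 ± 13.6 to 58.7 ± 25.2 CPM (SD, n = 4; 1.83, edgeR adjusted p = 0.00452). ALDH1A1, a retinal dehydrogenase, fell from 406 ± 88.2 to 196 ± 68.7 CPM (-1.11, edgeR adjusted p = 0.00834), and 11 did not pass. With toceranib the Polycomb gene BMI1 fell (-0.68), ABCG2, a drug efflux pump with a mean under 5 CPM, rose (2.22), and 11 did not pass. Without the toceranib library of KU-cHCC-005 neither passed (BMI1 -0.66, edgeR adjusted p = 0.123, and ABCG2 1.88, edgeR adjusted p = 0.112), and in DPBS they stood at 16.6 to 21.7 and 1.77 to 3.97 CPM. The medians were 0.10 and 0.43, against -0.024 and -0.0076 for all genes. Of 6 tested SOX genes beyond the 2 members, SOX7 fell with sorafenib (-1.21, edgeR adjusted p = 0.00960) and 5 did not pass, and with toceranib the 6 did not pass.

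Partners of osteopontin and CD44 were mixed. They are read beside the 19.6% of all genes called with sorafenib and the 7.46% called with toceranib. Of 9 tested osteopontin receptors and processing enzymes, the integrin chain ITGB3 rose with sorafenib from 19.1 ± 16.2 to 42.6 ± 26.6 CPM (SD, n = 4; 1.31, edgeR adjusted p = 0.00511) and fell with toceranib (-0.93, edgeR adjusted p = 0.0431). FAM20C, a kinase of secreted proteins that include osteopontin, fell with sorafenib (-0.55), and the protease MMP9, with a mean under 5 CPM, rose (2.38). F2 (prothrombin), whose active form cleaves osteopontin, rose with toceranib (1.18). Without the toceranib library of KU-cHCC-005 neither ITGB3 (-0.86, edgeR adjusted p = 0.134) nor F2 (1.03, edgeR adjusted p = 0.143) passed with that drug, and in DPBS they stood at 8.17 to 9.87 and 12.02 to 16.5 CPM. Of 18 tested genes of hyaluronan and CD44 handling, 3 rose and 1 fell with sorafenib, near the 19.6% of all genes. SLC7A11, the cystine carrier that a CD44 variant stabilises, rose by 2.34, the hyaluronidase HYAL1 by 1.33 and the shedding protease ADAM17 by 1.04. ESRP2, a splicing factor of epithelial CD44 isoforms, fell by 1.08 on the log2 scale. With toceranib MET fell by 0.96 and the other 17 did not pass; MET did not pass without the KU-cHCC-005 library (-0.92, edgeR adjusted p = 0.0979) and stood at 162 to 181 CPM in DPBS. CD44 isoforms cannot be read from counts per gene.

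Of 22 tested genes of the Notch, YAP and TGF-beta pathways, which act upstream of SOX4 and SOX9, 3 rose and 2 fell with sorafenib, near the 19.6% of all genes (median -0.063). The Notch ligand JAG1 rose from 31.1 ± 12.3 to 76.3 ± 20.3 CPM (SD, n = 4; 1.31, edgeR adjusted p = 0.00747), with YAP1 (0.70) and SMAD2 (0.52). The Notch target HES1 (-0.88) and the receptor TGFBR2 (-0.86) fell. With toceranib JAG1 (1.37) and JAG2 (0.73) rose and 20 did not pass (median 0.076), beside 7.46% called among all genes. Without the toceranib library of KU-cHCC-005 neither passed with toceranib (JAG1 1.27, edgeR adjusted p = 0.0687, and JAG2 0.62, edgeR adjusted p = 0.108), and DPBS held 97.2 to 115 and 128 to 143 CPM. Both comparisons share their DMSO libraries.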

How the data were processed

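Per the deposited files, the authors' values are raw read counts per gene symbol, 1 table of 39954 entries per library. TopHat is the tool named per the submitters' processing notes. The version, the counter, the strand setting and the genome build were not given in the sources used here. Coordinates are therefore not printed. The library kit, per the labels' protocols, was NEBNext Ultra II Directional. Entries of 1 symbol were summed (39543 symbols); no member was affected, and all 7 symbols are listed by RefSeq for dog (assembly UU_Cfam_GSD_1.0).

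edgeR 4.0.16 (R 4.3.3) was run on the 12 DMSO, sorafenib and toceranib libraries with filterByExpr (14938 genes), TMM, treatment and line as a block, and robust quasi-likelihood tests (6 residual degrees of freedom, common dispersion 0.0808). Benjamini-Hochberg adjusted p-values over all genes were called under 0.05. SE is the log2 fold change over the root of F. CPM use TMM over 16 libraries, and differences by line use log2(CPM + 0.5). Spread is that between lines. The block rests on the lines: deviations of same-line libraries from their treatment means correlated with DMSO at 0.753 to 0.892 (sorafenib) and 0.56 to 0.797 (toceranib). DESeq2 1.42.0 was an alternative, and the fit was tested on simulated data.

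Named are the 7 members, and of each list at most 4 called genes per comparison of at least 5 CPM, by size; genes under 5 CPM are named where a count was small. Values of 1 gene of these lists are not reported here. For each member of at least 5 CPM, 3 genes of like pattern are named. Members and lists were chosen with earlier results of these data known, and the contrast of DPBS with DMSO was added after values were seen.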

Additional observations from a re-analysis of the deposited data

Results flagged for a closer look

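In 3 of 28 sets of 4 libraries (7 genes in 4 treatments), 1 library lay far from the other 3. The measure was the gap to its neighbour relative to the whole range. The cut-off flags about 1 in 20 sets of independent normal values. CPM of unlike lines need not be such values, and the 4 DPBS libraries form near-identical pairs, so that rate is only a guide. SOX4 stood at 179 CPM in DMSO of KU-cHCC-004, against 67.5 to 77.2 CPM in the other lines. SPP1 stood at 532 CPM in DMSO of KU-cHCC-001, against 6.74 to 42.2 CPM, and at 2427 CPM in toceranib of the same line, against 92.8 to 295 CPM.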

How the results depend on the processing

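The fall of SPP1 and the rise of CD44 with sorafenib passed in 10 of 11 alternatives and that of SOX4 in 8 of 11. Without the line as a replicate block, 0 of the 7 genes passed with sorafenib and 0 with toceranib, and 2 in the direct comparison; all genes called were 464, 0 (2048 at an unadjusted p under 0.05) and 2159. Against 2935, 1115 and 5737 genes called in the 12 libraries, leaving out 1 line gave 596 to 3906, 1 to 3044 and 3017 to 6750, and 0 to 2 of the 7 genes with toceranib. In the 8 libraries of the treatments compared there were 5053 calls for sorafenib and 129 for toceranib. Of 10 called genes of the other lists, 1 passed with toceranib without the library of KU-cHCC-005. Calls of all genes for toceranib were 2335 with DESeq2, 557 with all 16 libraries, 66 without the library of KU-cHCC-005, and 0 against DPBS (1875 at an unadjusted p under 0.05), where 0 of the 7 genes passed and CD24 turned to -1.34. The cause was not tested. The fits with DPBS take its line labels as given, although they do not match. With 1 line left out, uncalled log2 differences that changed sign ran from -0.70 to 0.42 (PROM1, sorafenib), from -1.64 to 0.52 (PROM1, toceranib), from -0.28 to 0.21 (SOX9, toceranib), from -0.88 to 0.062 (ALCAM, toceranib) and from -0.13 to 1.00 (PROM1, direct comparison; -0.098 without KU-cHCC-004). SOX9 with toceranib was 0.0055 with library size alone. SOX9 in the direct comparison passed with DESeq2 alone. Depth limits CD24 and PROM1, with 0 to 59 counts in many libraries.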
